A study of Homo sapiens with 12 samples.

Results

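The genes described are 10 genes of fatty acid oxidation and of the PPAR pathway (PPARA, PPARD, PPARGC1A, CPT1A, CPT2, ACADVL, HADHA, PDK4, ANGPTL4 and PLIN2), out of 25433 genes in the count tables. They were chosen by name and selected on the values given here, because ANGPTL4 moved against CPT1A and PDK4 in these libraries. Their levels and differences are therefore a description with no test. The cells were A549, a human lung adenocarcinoma line with features of alveolar epithelium. The 3 groups of 4 libraries were cells given 10 ng/mL TGF-β1 together with 40 mM sodium acetate (the acetate libraries), cells given 10 ng/mL TGF-β1 alone, and control cells, with treatments lasting 2 days. Epithelial cells exposed to TGF-β1, a secreted signalling protein, lose cell contacts and take on mesenchymal features. Acetate is the shortest of the common fatty acids, and cells can activate it to acetyl-CoA. No group received acetate without TGF-β1 and none received another sodium salt, so effects of acetate, of sodium and of osmolarity cannot be told apart. The study used 1 cell line, and the labels give no separate cultures for the libraries, so every p-value below measures the spread between libraries, which may be technical.

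PPARs (peroxisome proliferator-activated receptors) are nuclear receptors that pair with retinoid X receptors, bind fatty acids and their derivatives, and switch on genes that take up, store and burn fat. In fatty acid oxidation, CPT1A at the outer mitochondrial membrane links long-chain fatty acids to carnitine, CPT2 at the inner membrane releases them again as acyl-CoA, and ACADVL and HADHA then shorten the chain. PDK4, a kinase that switches off pyruvate dehydrogenase, limits the use of pyruvate in the same mitochondria, and ANGPTL4 is a secreted inhibitor of lipoprotein lipase. PDK4, CPT1A, ANGPTL4 and PLIN2, a coat protein of lipid droplets, are textbook PPAR targets in liver, muscle and fat.

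The stretches of 250 bases just before the start of ANGPTL4, CPT1A and PDK4 are shown because these are the genes whose opposite movement defined the choice. They are RefSeq sequences of build GRCh38.p14, on the strand of the gene, at chr19:8363905-8364154 for ANGPTL4 on the plus strand, chr11:68844278-68844527 for CPT1A on the minus strand and chr7:95596517-95596766 for PDK4 on the minus strand. Capitals mark each match, on either strand, to CAGAC (an element that SMAD proteins, the mediators of TGF-β signalling, can bind), to ACGTG (the core that hypoxia-inducible factors bind) and to AGGTCA (the core that PPAR and RXR bind).
ANGPTL4: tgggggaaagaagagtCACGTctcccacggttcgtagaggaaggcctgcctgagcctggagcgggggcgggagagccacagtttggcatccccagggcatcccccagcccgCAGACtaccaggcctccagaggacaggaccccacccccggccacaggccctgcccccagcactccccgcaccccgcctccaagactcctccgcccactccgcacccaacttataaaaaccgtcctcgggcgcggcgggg
CPT1A: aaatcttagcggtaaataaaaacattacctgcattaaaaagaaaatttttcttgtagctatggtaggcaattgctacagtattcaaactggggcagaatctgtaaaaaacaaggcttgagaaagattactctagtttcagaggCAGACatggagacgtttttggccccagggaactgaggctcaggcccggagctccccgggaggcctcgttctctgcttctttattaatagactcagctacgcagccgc
PDK4: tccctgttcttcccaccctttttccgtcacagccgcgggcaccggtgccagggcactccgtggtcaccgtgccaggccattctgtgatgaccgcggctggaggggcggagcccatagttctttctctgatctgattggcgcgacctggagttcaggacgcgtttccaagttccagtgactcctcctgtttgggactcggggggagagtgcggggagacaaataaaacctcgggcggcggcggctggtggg
The ANGPTL4 window held CAGAC starting at position −139 and ACGTG starting at −234 relative to the RefSeq start, the CPT1A window held CAGAC at −107, and the PDK4 window held none of these letters. AGGTCA stood in none of the windows of the 10 genes, and neither did 2 copies of it 1 base apart with up to 2 mismatches, the arrangement that PPAR and RXR pairs prefer. Of all 35116 windows of the same length, 38.0% held CAGAC, 18.5% held ACGTG, 12.1% held AGGTCA and 2.57% held the paired copies. GC content was 68.8% for ANGPTL4, 44.4% for CPT1A and 62.8% for PDK4, beside a median of 58.0% over all windows. A match is only a match of letters. PPAR elements of these genes can lie outside such a window, and GENCODE release 29 annotates transcripts of ANGPTL4 and CPT1A that begin further upstream.

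RNA was sequenced after removal of ribosomal RNA, and the summed counts per library were 34698057 to 41575904 in acetate libraries, 37202599 to 53936023 in TGF-β1 libraries and 38400896 to 53055990 in control libraries. Levels are in CPM, counts scaled to a common library total that was adjusted by TMM, a method that lines up the bulk of genes between libraries. A count of 3 corresponded to 0.0564 to 0.0856 CPM. All 8 epithelial markers were listed, with summed levels of 6700 to 7700 CPM in acetate libraries, 5590 to 6180 CPM in TGF-β1 libraries and 6040 to 6280 CPM in control libraries. The sum came mostly from KRT8, KRT18 and KRT7. In acetate, TGF-β1 and control libraries, EPCAM averaged 5.63, 1.08 and 4.22 CPM and KRT19 58.4, 7.01 and 36.6 CPM. CLDN4 averaged 30.1, 12.5 and 1.8 CPM and CLDN7 0.379, 0.346 and 1.08 CPM in the same order. CDH1, the epithelial adhesion protein E-cadherin, averaged 45.5 CPM in acetate libraries, 1.46 CPM in TGF-β1 libraries and 58.7 CPM in control libraries. Of 9 alveolar type 2 markers 6 were listed, summing to 87.2 to 97.8 CPM in acetate libraries, 43.6 to 48.7 CPM in TGF-β1 libraries and 41.2 to 45.3 CPM in control libraries, higher in every acetate library than in any other. The surfactant genes SFTPA1 and SFTPA2 and the lineage factor NKX2-1 were not in the tables. The surfactant genes SFTPB, SFTPC and SFTPD stayed below 1 CPM wherever they were listed. Nearly all of the sum came from ABCA3, which averaged 89.6 CPM in acetate, 43.6 CPM in TGF-β1 and 41.1 CPM in control libraries. NAPSA averaged at most 2.08 CPM and LAMP3 at most 0.814 CPM, so the higher sum with acetate mainly describes ABCA3. Of 7 adipocyte markers 4 were listed, summing to 14.0 to 16.1 CPM in acetate libraries, 6.81 to 8.54 CPM in TGF-β1 libraries and 16.2 to 17.5 CPM in control libraries, and ADIPOQ, LEP and FABP4 were not in the tables. In acetate, TGF-β1 and control libraries, CFD averaged 7.32, 2.38 and 10.2 CPM and LIPE 4.38, 3.77 and 5.78 CPM. CIDEC ran otherwise, at 3.34, 1.31 and 0.854 CPM, and PLIN1 stayed at 0.13, 0.17 and 0.16 CPM. The 7 of 8 fibroblast markers that were listed summed to 41.7 to 46.9, 34.0 to 37.0 and 17.1 to 18.2 CPM in acetate, TGF-β1 and control libraries, 3 of 7 endothelial markers to 14.7 to 16.6, 6.71 to 7.36 and 4.70 to 5.55 CPM, 4 of 8 leukocyte markers to 25.4 to 26.8, 15.5 to 18.7 and 13.9 to 16.9 CPM, and 2 of 7 hepatocyte markers to 1.06 to 1.49, 0.560 to 0.713 and 0.328 to 0.714 CPM. TF of hepatocytes had no value in acetate libraries, and COL1A2 of fibroblasts and SFTPC had none in control libraries, so those sums hold fewer genes there. FBLN1, ESAM and CD68 had the highest mean of the fibroblast, endothelial and leukocyte markers in every group. PTPRC and PECAM1, which define leukocytes and endothelium, and ALB of hepatocytes were not in the tables. The part of these markers in the results below was not tested, and fewer cells of a type cannot be told apart from less RNA per cell.

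With TGF-β1 alone, ANGPTL4 stood far above its control level while PDK4, PPARGC1A, PLIN2, CPT1A and CPT2 stood below theirs. With acetate added, all 6 lay on the control side of their TGF-β1 level, by unequal amounts. CPT1A, PPARA, PPARD and ACADVL were highest in acetate libraries, and HADHA was nearly level throughout. Between TGF-β1 and control, 3 of the 10 genes were higher and 5 lower with no overlap between the 4 libraries of each group. Over all 22051 genes tested, 31.1% were higher and 30.4% lower without overlap, so separation of the groups was common and nothing is read from the members' count. Between acetate and TGF-β1, 8 members were higher and 1 lower without overlap, beside 30.0% and 27.4% of all 22336 genes. Between acetate and control, 6 were higher and 4 lower, beside 32.4% and 31.6% of 22742 genes. The median log2 fold change of the 10 genes was −0.29 for TGF-β1 against control, 0.59 for acetate against TGF-β1 and 0.24 for acetate against control, and the medians of all genes were 0.02, 0.03 and 0.02. The first and the second comparison share the TGF-β1 libraries, so a level that is extreme in those libraries enters both with opposite sign.

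**Figure D1:**
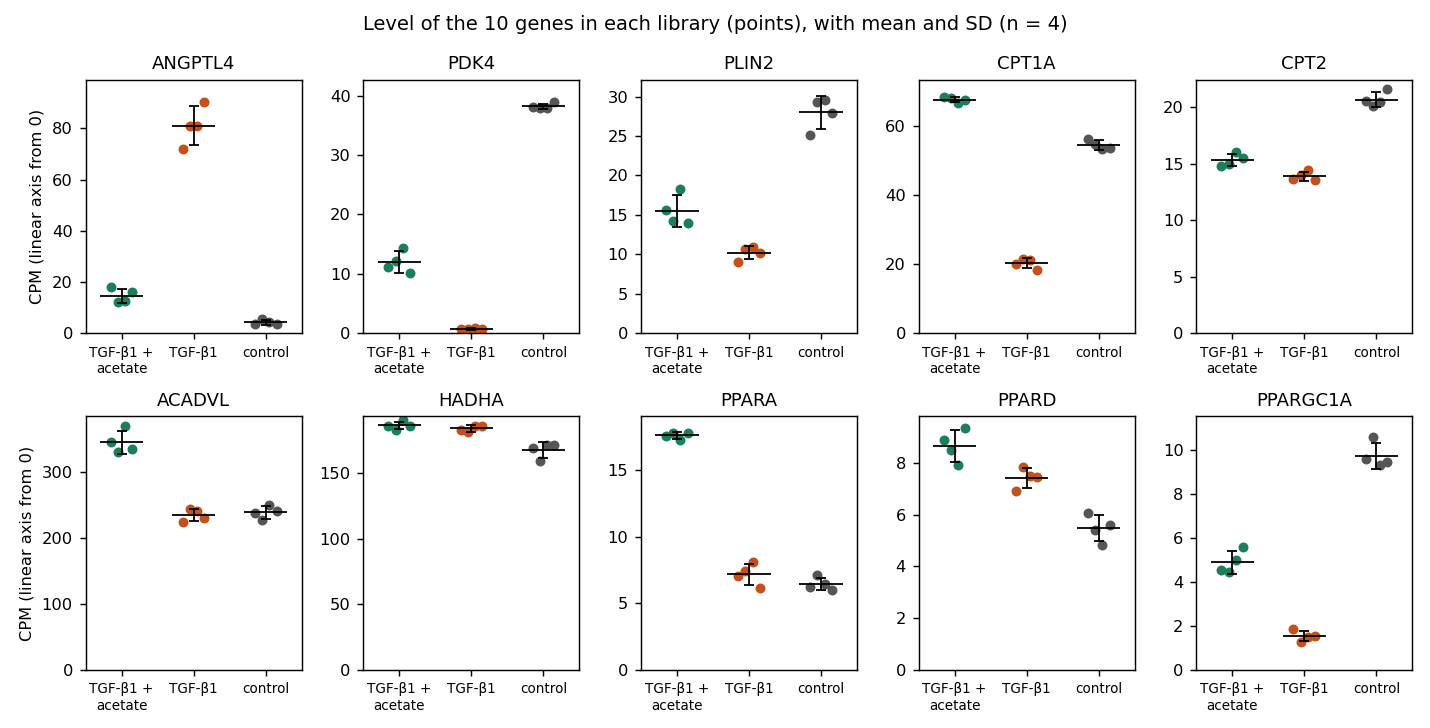
Level of each of the 10 genes in CPM (linear axis from 0), 1 point per library, with the mean as a line and the SD as a bar (n = 4), for TGF-β1 plus acetate, TGF-β1 and control from left to right. ANGPTL4 peaks at 71.8 to 90.3 CPM with TGF-β1 alone, where PDK4 lies below 1 CPM, and the acetate libraries lie between the other groups for ANGPTL4, PDK4, PLIN2, CPT2 and PPARGC1A.

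ANGPTL4 (chr19:8363289-8374373 in GENCODE release 29, plus strand) was the 1 gene of the 10 that peaked with TGF-β1. Its level was 17.8, 12, 12.6 and 15.9 CPM in the acetate libraries, 71.8, 81.1, 81.0 and 90.3 CPM in the TGF-β1 libraries and 3.46, 5.33, 4.32 and 3.59 CPM in the control libraries. All TGF-β1 libraries lay above all acetate libraries, and all acetate libraries above all control libraries. The mean was 14.6 ± 2.76 CPM with acetate, 81.0 ± 7.51 CPM with TGF-β1 and 4.17 ± 0.856 CPM in control (SD, n = 4 each). ANGPTL4 was thus 19.5-fold higher with TGF-β1 than in control (log2 fold change 4.29 ± 0.098, SE). With acetate it was 5.53-fold lower than with TGF-β1 alone (log2 fold change −2.47 ± 0.097, SE). It remained 3.49-fold above control (log2 fold change 1.80 ± 0.136, SE).

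PDK4 (chr7:95583499-95596491, minus strand) showed the widest range of the 10. The raw counts were 403, 468, 610 and 446 in acetate libraries, 26, 21, 42 and 27 in TGF-β1 libraries and 1868, 1856, 1482 and 2069 in control libraries. On the CPM scale these were 11.2, 12.2, 14.4 and 10.2 with acetate, 0.64, 0.60, 0.83 and 0.66 with TGF-β1, and 38.2, 37.9, 37.9 and 38.9 in control. The control libraries agreed closely, and the TGF-β1 libraries were low but all above the level of 3 counts. The mean was 12 ± 1.80 CPM with acetate, 0.681 ± 0.102 CPM with TGF-β1 and 38.2 ± 0.493 CPM in control (SD, n = 4 each). PDK4 was 54.9-fold lower with TGF-β1 than in control (log2 fold change −5.78 ± 0.075, SE). It was 17.4-fold higher with acetate than with TGF-β1 alone (log2 fold change 4.12 ± 0.143, SE), a level that was still 31.4% of control.

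CPT1A (chr11:68754620-68844410, minus strand) was lowest with TGF-β1 and passed the control level with acetate. Its level was 68.5, 68.1, 66.8 and 67.7 CPM in acetate libraries, 20.1, 21.4, 21.2 and 18.3 CPM in TGF-β1 libraries and 56.4, 55.0, 53.4 and 53.6 CPM in control libraries. None of the groups overlapped, and the acetate libraries differed from each other by less than 2 CPM. The log2 fold change was −1.43 ± 0.048 (SE) for TGF-β1 against control, 1.75 ± 0.048 for acetate against TGF-β1 and 0.31 ± 0.041 for acetate against control, where the acetate level was 124% of the control level. The authors' deposited tables give log2 fold changes of 4.31 and −2.49 for ANGPTL4, −5.77 and 4.10 for PDK4 and −1.43 and 1.75 for CPT1A, in the order TGF-β1 against control and acetate against TGF-β1. Those columns do not name their direction, and it was read from their signs, which matched the values computed here for 99.1% and 98.9% of the genes tested.

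The balance between these genes can be read within each library, where no scaling between libraries enters. The number of ANGPTL4 counts per CPT1A count was 0.260, 0.176, 0.189 and 0.235 in acetate libraries, 3.58, 3.78, 3.82 and 4.93 in TGF-β1 libraries and 0.0613, 0.0968, 0.0809 and 0.0670 in control libraries. ANGPTL4 thus gave more reads than CPT1A only with TGF-β1 alone. The number of ANGPTL4 counts per PDK4 count was 1.25 ± 0.376 with acetate, 121 ± 19.0 with TGF-β1 and 0.109 ± 0.0234 in control (SD, n = 4 each). Both ratios kept the same order of groups with no overlap, and acetate libraries lay closer to control than to TGF-β1 libraries without reaching it.

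**Figure D2:**
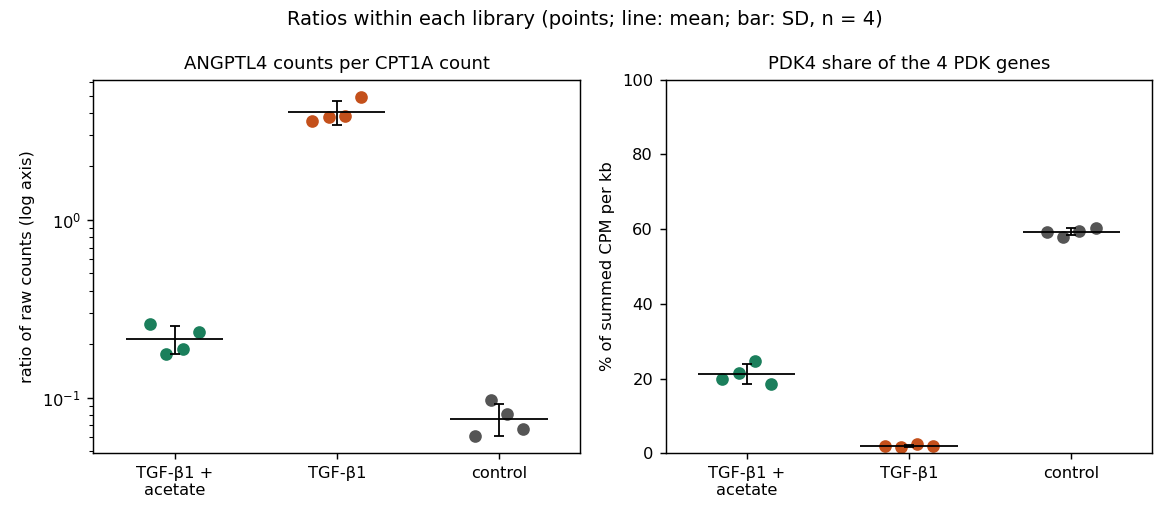
Left, raw ANGPTL4 counts per raw CPT1A count in each library (log axis); right, the share of PDK4 in the summed CPM per kilobase of PDK1, PDK2, PDK3 and PDK4, in percent; points are libraries, lines are means and bars are SD (n = 4). The ratio averages 0.215 with TGF-β1 plus acetate, 4.03 with TGF-β1 and 0.0765 in control, and the PDK4 share 21.2%, 2.04% and 59.3% in the same groups.

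The other 3 PDK genes did not share the pattern of PDK4. Levels are compared between genes per kilobase of exon, with the length of all annotated exons joined. PDK4 made up 21.2% ± 2.66 of the summed CPM per kilobase of the 4 PDK genes with acetate, 2.04% ± 0.308 with TGF-β1 and 59.3% ± 1.02 in control (SD, n = 4 each). PDK2 was the highest of the family in both treated groups, at 6.47 ± 0.0818 CPM per kilobase with acetate, 5.48 ± 0.315 with TGF-β1 and 3.56 ± 0.164 in control. PDK2 rose with TGF-β1 against control (log2 fold change 0.63 ± 0.0546 SE, adjusted p = 2.9e-08), by edgeR's quasi-likelihood test with Benjamini-Hochberg adjustment over all genes tested, as for all adjusted p-values below. PDK1 fell in that comparison (log2 fold change −0.65, adjusted p = 4.6e-07). PDK3 rose with acetate against TGF-β1 (log2 fold change 0.82, adjusted p = 3.4e-08), where PDK1 had a log2 fold change of −0.15 (adjusted p = 0.082).

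PPARGC1A (chr4:23755041-23904089, minus strand), the coactivator PGC-1α that partners PPARs in mitochondrial gene expression, ran in the same directions as PDK4. It had 4.56, 4.45, 4.99 and 5.59 CPM in acetate libraries, 1.86, 1.26, 1.5 and 1.53 CPM in TGF-β1 libraries and 9.58, 10.6, 9.30 and 9.48 CPM in control libraries. The TGF-β1 libraries held only 44 to 76 reads of it, and no groups overlapped. The level was 6.29-fold lower with TGF-β1 than in control (log2 fold change −2.65 ± 0.102, SE). It was 3.20-fold higher with acetate than with TGF-β1 (log2 fold change 1.68 ± 0.130, SE), and 50.2% of control. PPARGC1B, its paralogue, rose with TGF-β1 against control (log2 fold change 0.70, adjusted p = 6.2e-07). PPRC1, a more distant coactivator of the family, was the highest of the 3 per kilobase, at 9.51 ± 0.797 with acetate, 13.7 ± 1.20 with TGF-β1 and 14.5 ± 0.331 in control (SD, n = 4 each), and fell with acetate against TGF-β1 (log2 fold change −0.52, adjusted p = 4.4e-06).

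The receptors PPARA and PPARD were highest with acetate. PPARA (chr22:46150521-46243756, plus strand), the receptor that drives fatty acid oxidation in liver, had 17.6, 17.8, 17.3 and 17.8 CPM in acetate libraries, 7.04, 7.39, 8.11 and 6.16 CPM in TGF-β1 libraries and 6.24, 7.12, 6.44 and 6.02 CPM in control libraries. TGF-β1 and control libraries overlapped (log2 fold change 0.16 ± 0.089, SE), and every acetate library was above both groups. With acetate the level was 2.47-fold that with TGF-β1 (log2 fold change 1.30 ± 0.073, SE) and 2.73-fold that of control. PPARD (chr6:35342558-35428191, plus strand), a receptor expressed in most tissues, averaged 8.67 ± 0.612 CPM with acetate, 7.44 ± 0.397 CPM with TGF-β1 and 5.48 ± 0.510 CPM in control (SD, n = 4 each), with no overlap. Its log2 fold change was 0.44 ± 0.080 (SE) for TGF-β1 against control and 0.23 ± 0.074 for acetate against TGF-β1, the second becoming 0.36 with library totals in place of TMM. The number of PPARA counts per PPARD count was 2.04 ± 0.127 with acetate, 0.965 ± 0.109 with TGF-β1 and 1.19 ± 0.157 in control. PPARG, the receptor of fat cells, had the highest level per kilobase of the 3 PPAR genes in every group, at 13.9 ± 0.478 with acetate, 10.9 ± 0.444 with TGF-β1 and 12 ± 0.243 in control. PPARG rose with acetate against TGF-β1 (log2 fold change 0.36, adjusted p = 1.5e-06) and fell with TGF-β1 against control (log2 fold change −0.13, adjusted p = 0.0073). PPARA made up 9.96% ± 0.271 of the summed PPAR level per kilobase with acetate, 5.39% ± 0.719 with TGF-β1 and 4.64% ± 0.375 in control (SD, n = 4 each).

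In both comparisons with the TGF-β1 libraries, CPT1A differed more than CPT2, ACADVL and HADHA, which act after it. CPT2 (chr1:53196429-53214197, plus strand) had 14.8 to 16 CPM in acetate libraries, 13.5 to 14.4 CPM in TGF-β1 libraries and 20.1 to 21.6 CPM in control libraries. The groups did not overlap, but acetate and TGF-β1 libraries lay within 3 CPM of each other. Its log2 fold change was −0.56 ± 0.048 (SE) for TGF-β1 against control, 0.16 ± 0.053 for acetate against TGF-β1 (0.29 with library totals) and −0.42 ± 0.047 for acetate against control. The number of CPT1A counts per CPT2 count was 4.42 ± 0.205 with acetate, 1.46 ± 0.0762 with TGF-β1 and 2.65 ± 0.128 in control (SD, n = 4 each).

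ACADVL (chr17:7217125-7225273, plus strand), the dehydrogenase that starts each round on the longest chains, had 345, 330, 369 and 335 CPM in acetate libraries, 223, 244, 240 and 230 CPM in TGF-β1 libraries and 238, 226, 249 and 241 CPM in control libraries. TGF-β1 and control libraries overlapped, and all acetate libraries were above both. The level with acetate was 1.48-fold that with TGF-β1 (log2 fold change 0.57 ± 0.041, SE) and 145% of control. HADHA (chr2:26190635-26244726, minus strand), the subunit of the trifunctional protein that carries the next steps, averaged 186 ± 2.94 CPM with acetate, 184 ± 2.51 CPM with TGF-β1 and 167 ± 5.87 CPM in control (SD, n = 4 each). Its acetate and TGF-β1 libraries overlapped (log2 fold change 0.03 ± 0.031, SE; 0.16 with library totals, 0.00 without TGF-β1 library S15 or S16). For TGF-β1 against control its log2 fold change was 0.14 ± 0.034 (SE), which became 0.04 with library totals and 0.08 without control library S2, and for acetate against control it was 0.16 ± 0.033. HADHB, which encodes the other subunit, had log2 fold changes of 0.08 for TGF-β1 against control (adjusted p = 0.035) and 0.11 for acetate against TGF-β1 (adjusted p = 0.013). Library totals shifted the median of all genes by −0.1 and 0.13 in these comparisons, each larger in size than the HADHB value. The genes HADHA and HADHB overlap by 1557 bases, ACADVL and DLG4 by 2717 bases and CPT2 and C1orf123 by 99 bases, each on opposite strands. The strand setting of the counting is not given in the sources used here, so reads there could be shared, and the pseudogenes HADHAP1 and HADHAP2 may take reads of HADHA. PPARGC1A overlaps 2 antisense genes and CPT2 another, with the same uncertainty.

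PLIN2 (chr9:19108375-19149290, minus strand), the lipid droplet coat, had 15.6, 14.2, 18.3 and 13.9 CPM in acetate libraries, 9.05, 10.7, 10.9 and 10.2 CPM in TGF-β1 libraries and 25.1, 29.3, 29.6 and 27.9 CPM in control libraries. No groups overlapped, and acetate libraries lay nearer to TGF-β1 than to control. Its log2 fold change was −1.44 ± 0.066 (SE) for TGF-β1 against control, 0.61 ± 0.088 for acetate against TGF-β1 and −0.85 ± 0.078 for acetate against control. PLIN3, another coat protein of droplets, ran otherwise. Per kilobase PLIN3 had 35.8 ± 2.45 CPM with acetate, 26.3 ± 1.67 CPM with TGF-β1 and 14.1 ± 0.718 CPM in control (SD, n = 4 each), and it rose in both comparisons (log2 fold change 0.91, adjusted p = 6.6e-11, for TGF-β1 against control and 0.46, adjusted p = 1.5e-06, for acetate against TGF-β1). PLIN2 therefore made up 15.8% ± 0.912 of the level of both coats with acetate, 14.4% ± 0.485 with TGF-β1 and 46.3% ± 2.86 in control.

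**Figure D3:**
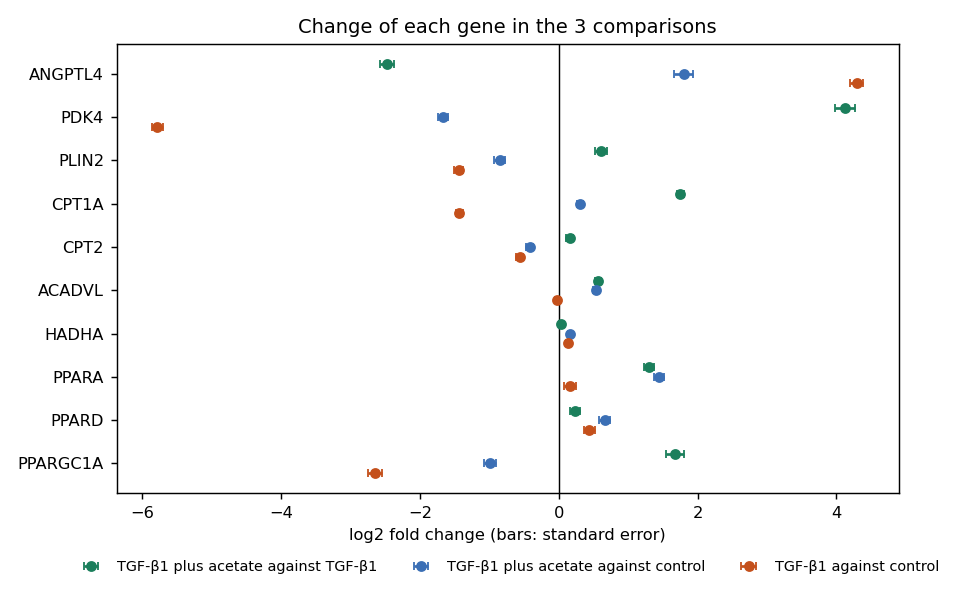
Log2 fold change of each of the 10 genes (points; bars, standard error) for TGF-β1 plus acetate against TGF-β1, TGF-β1 plus acetate against control, and TGF-β1 against control. ANGPTL4 and PDK4 lie farthest from 0 and on opposite sides, at 4.29 and −5.78 for TGF-β1 against control, and HADHA lies within 0.16 of 0 in all 3 comparisons.

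The order of levels per kilobase shifted with the treatment, while ACADVL and HADHA stayed first and second. With acetate the order was ACADVL at 139 CPM per kilobase, HADHA at 59.4, CPT1A at 11.7, ANGPTL4 at 7.75, PLIN2 at 6.73, CPT2 at 4.83, PDK4 at 3.36, PPARD at 1.94, PPARA at 1.75 and PPARGC1A at 0.544, and of these neighbours ANGPTL4 and PLIN2 overlapped. With TGF-β1 it was ACADVL at 94.7, HADHA at 58.6, ANGPTL4 at 43.1, PLIN2 at 4.44, CPT2 at 4.37, CPT1A at 3.50, PPARD at 1.67, PPARA at 0.713, PDK4 at 0.190 and PPARGC1A at 0.171, where PLIN2 overlapped CPT2 and PDK4 overlapped PPARGC1A. In control it was ACADVL at 96.3, HADHA at 53.3, PLIN2 at 12.2, PDK4 at 10.7, CPT1A at 9.44, CPT2 at 6.48, ANGPTL4 at 2.22, PPARD at 1.23, PPARGC1A at 1.08 and PPARA at 0.642, where PLIN2 overlapped PDK4 and PPARD overlapped PPARGC1A. PDK4 thus ranked 7 of 10 with acetate, 9 with TGF-β1 and 4 in control, and ANGPTL4 ranked 4, 3 and 7 in the same groups.

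CPT1A has 2 paralogues, CPT1B of muscle and CPT1C of brain. CPT1A made up 48.5% ± 1.79 of the summed level per kilobase of the 3 genes with acetate, 28.9% ± 0.891 with TGF-β1 and 53.7% ± 2.56 in control (SD, n = 4 each). CPT1B and CPT1C did not pass the test for TGF-β1 against control, with log2 fold changes of 0.09 (adjusted p = 0.28) and 0.04 (adjusted p = 0.77). Both rose with acetate against TGF-β1, CPT1B by a log2 fold change of 0.39 (adjusted p = 2.1e-05) and CPT1C by 1.21 (adjusted p = 8.2e-08). CPT1B shares its exons with the read-through gene CHKB-CPT1B, so its level is uncertain.

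The rest of the pathway and, for comparison, targets of other regulators were read from 12 lists of 244 other genes, 225 of them in the tables. The totals in this paragraph pool all lists. They thus include the glucocorticoid response genes, FOXO targets and hypoxia-inducible factor targets, and are not totals of the pathway alone. Between TGF-β1 and control, 63 list genes rose and 105 fell among 213 tested, with a median log2 fold change of −0.12, where 34.1% of all genes rose and 32.8% fell. Between acetate and TGF-β1, 112 rose and 43 fell among 214 tested (median 0.14), where 33.3% of all genes rose and 30.4% fell. Between acetate and control, 86 rose and 90 fell among 214 tested (median 0.00), beside 36.1% and 34.4% of all genes. These shares of all genes also stand beside the counts of each list below. The split of calls over all genes moved with the scaling. For acetate against TGF-β1, 52.3% of all calls were rises with TMM and 67.1% with library totals, which raised the median of all genes by 0.13. For TGF-β1 against control the shares were 51.0% and 41.2%, with a shift of −0.10, and the range of list counts over all settings tried was 53 to 64 rises and 102 to 122 falls for TGF-β1 against control, and 102 to 140 rises and 33 to 50 falls for acetate against TGF-β1.

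Of 31 other PPAR target genes tested, 6 rose and 18 fell with TGF-β1 against control (median log2 fold change −0.24), and 19 rose and 3 fell with acetate against TGF-β1 (median 0.17). SLC27A2, which carries and activates very long-chain fatty acids, averaged 18.6 ± 1.96 CPM with acetate, 3.86 ± 0.569 CPM with TGF-β1 and 48.8 ± 1.46 CPM in control (SD, n = 4 each). It fell with TGF-β1 (log2 fold change −3.65, adjusted p = 1.1e-16) and rose with acetate (log2 fold change 2.27, adjusted p = 3.2e-11). PCK2, the mitochondrial phosphoenolpyruvate carboxykinase, fell with TGF-β1 (log2 fold change −3.37, adjusted p = 2.6e-15), as did TXNIP, an inhibitor of thioredoxin (adjusted p = 2.0e-10). TXNIP rose with acetate (adjusted p = 0.0025) on only 14 to 25 reads in acetate libraries and 3 to 9 in TGF-β1 libraries, against 108 to 132 in control libraries. No fold is given for TXNIP because TGF-β1 libraries reached the floor of 3 counts. SLC27A1, a fatty acid transporter, rose with acetate (log2 fold change 1.46, adjusted p = 7.0e-10). FABP5, a fatty acid binding protein named after its values were seen, had the directions of ANGPTL4: it rose with TGF-β1 (log2 fold change 0.90, adjusted p = 3.9e-10) and fell with acetate (log2 fold change −0.68, adjusted p = 2.6e-08). ACOT2, a thioesterase, and ECI1, an isomerase, were the other list members that fell with acetate.

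Of 22 PPAR partners and coregulators tested, 4 rose and 14 fell with TGF-β1 (median −0.33), and 10 rose and 8 fell with acetate (median 0.02; 5 fell with library totals). TBL1X, a subunit of nuclear receptor corepressor complexes, fell with TGF-β1 (log2 fold change −0.75, adjusted p = 5.9e-09). CITED2, a transcriptional coregulator, fell with TGF-β1 (log2 fold change −1.51, adjusted p = 3.4e-08) and rose with acetate (log2 fold change 1.56, adjusted p = 1.0e-08). With acetate, LPIN1, a phosphatidate phosphatase that also coactivates PPARA with PGC-1α, rose (log2 fold change 1.02, adjusted p = 1.1e-11), and SIRT1, a deacetylase of PGC-1α, fell (log2 fold change −0.66, adjusted p = 1.8e-08). RXRA, the partner receptor, fell with TGF-β1 (log2 fold change −0.38, adjusted p = 5.1e-06) and rose with acetate (log2 fold change 0.23, adjusted p = 0.00093), and RXRB did the reverse (log2 fold change 0.57, adjusted p = 5.5e-09, and −0.46, adjusted p = 1.2e-07).

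Of 13 other carnitine shuttle genes, 2 rose and 4 fell with TGF-β1 (median −0.03; 7 fell with library totals), and 8 rose and 2 fell with acetate (median 0.17). SLC22A5, the carnitine transporter OCTN2, fell with TGF-β1 (log2 fold change −0.73, adjusted p = 1.5e-10). SLC22A4, its relative, ran the other way in both comparisons (log2 fold change 0.62, adjusted p = 7.7e-07, with TGF-β1 and −0.80, adjusted p = 3.0e-08, with acetate). ACACB, the acetyl-CoA carboxylase whose product malonyl-CoA inhibits CPT1, fell with TGF-β1 (log2 fold change −0.44, adjusted p = 2.8e-06) and rose with acetate (log2 fold change 0.77, adjusted p = 3.4e-09).

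Of 26 other mitochondrial β-oxidation genes, 7 rose and 14 fell with TGF-β1 (median −0.23; 3 rose with library totals), and 15 rose and 6 fell with acetate (median 0.14). ACSM3, a medium-chain acyl-CoA synthetase, and ECI1, an enoyl-CoA isomerase, fell with TGF-β1 (log2 fold change −1.5, adjusted p = 2.2e-13, and −0.96, adjusted p = 3.2e-11). ACAD11, an acyl-CoA dehydrogenase, fell too (log2 fold change −0.99, adjusted p = 3.5e-11), and shares exons with a read-through gene. With acetate DECR1, the dienoyl-CoA reductase, rose (log2 fold change 0.55, adjusted p = 4.6e-08). ETFB, a subunit of the electron carrier of β-oxidation, and ECHDC2 rose as well (log2 fold change 0.45, adjusted p = 6.7e-07, and 0.63, adjusted p = 1.5e-06), and an annotated protein-coding gene covers ETFB on the same strand.

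Peroxisomes shorten chains too long for mitochondria. Of 23 peroxisomal genes tested, 7 rose and 11 fell with TGF-β1 (median −0.13), and of 24 tested 14 rose and 2 fell with acetate (median 0.24; 1 fell with library totals). ACOX2, the oxidase of branched chains, fell with TGF-β1 (log2 fold change −4.60, adjusted p = 1.1e-12) and rose with acetate (log2 fold change 1.66, adjusted p = 0.00019), with 70 reads in all acetate libraries, 23 in all TGF-β1 libraries and 646 in all control libraries. ECH1 fell (log2 fold change −0.79, adjusted p = 2.0e-11; overlapped on the same strand by another annotated gene) and ACOX3, another oxidase, rose (log2 fold change 0.77, adjusted p = 6.4e-09) with TGF-β1. ABCD2, a peroxisomal fatty acid transporter, had 14 to 19 reads per acetate library and 1 to 3 per TGF-β1 library, at or under the floor of 3 counts, so no fold is given.

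Of 16 pyruvate dehydrogenase genes and regulators other than PDK4, 3 rose and 7 fell with TGF-β1 (median −0.04; 1 rose with library totals), and 7 rose and 4 fell with acetate (median 0.02). PDHX, the subunit that anchors dihydrolipoamide dehydrogenase in the complex, fell with TGF-β1 (log2 fold change −0.75, adjusted p = 5.8e-11). PDP1 and PDP2, the phosphatases that reverse PDK action, rose with acetate (log2 fold change 0.55, adjusted p = 2.3e-07, and 0.83, adjusted p = 4.4e-08), together with PDK3 as given above.

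Around ANGPTL4, 7 of 19 other angiopoietin-like proteins and lipases rose and 6 fell with TGF-β1 (median 0.05), and 10 rose and 1 fell with acetate (median 0.24). The count of falls with acetate was 2 without TGF-β1 library S15 or acetate library S24, with DESeq2 or its size factors and in the joint fit. SDC1, a heparan sulfate proteoglycan, was that 1 gene: it fell with acetate (log2 fold change −0.86, adjusted p = 1.1e-10) and rose with TGF-β1 (log2 fold change 1.80, adjusted p = 2.9e-15), the directions of ANGPTL4. ANGPTL1, ANGPTL6 and ANGPTL8, relatives of ANGPTL4, rose with acetate (log2 fold change 1.39, 0.49 and 0.62, adjusted p = 0.0038, 0.0012 and 0.0072). LIPG, endothelial lipase, rose with acetate (log2 fold change 3.28, adjusted p = 2.1e-09) and averaged 5.94 ± 0.705 CPM with acetate, 0.590 ± 0.302 CPM with TGF-β1 and 1.86 ± 0.435 CPM in control (SD, n = 4 each). LIPH, a phosphatidic acid lipase, fell with TGF-β1 (log2 fold change −2.35, adjusted p = 1.0e-14) and rose with acetate (log2 fold change 2.44, adjusted p = 3.0e-13). MGLL, monoglyceride lipase, fell with TGF-β1 (log2 fold change −2.21, adjusted p = 2.4e-16).

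Of 22 lipid droplet genes other than PLIN2, 7 rose and 12 fell with TGF-β1 (median −0.12). Of 21 tested with acetate, 9 rose and 2 fell (median 0.02), where 14 rose with library totals and 4 fell without TGF-β1 library S15. DGAT2, which makes triglyceride, fell with TGF-β1 (log2 fold change −2.08, adjusted p = 1.6e-08) and rose with acetate (log2 fold change 1.40, adjusted p = 5.3e-05). G0S2, an inhibitor of the droplet lipase PNPLA2, and CIDEC, which enlarges droplets, rose with acetate (log2 fold change 2.33, adjusted p = 6.3e-06, and 1.35, adjusted p = 1.1e-06), G0S2 on 5 to 15 reads per TGF-β1 library. METTL7A, a droplet-associated protein, fell with TGF-β1 (adjusted p = 1.4e-05), with 0 to 8 reads per TGF-β1 library against 23 to 41 per control library, and no fold is given because TGF-β1 libraries reached the floor of 3 counts. HILPDA, a lipase inhibitor of droplets named after its values were seen, fell with TGF-β1 (log2 fold change −1.10, adjusted p = 2.4e-11) and did not pass the test with acetate (log2 fold change −0.13, adjusted p = 0.11).

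Of 23 genes of fatty acid uptake and activation tested, 7 rose and 12 fell with TGF-β1 (median −0.23), and of 24 tested 14 rose and 2 fell with acetate (median 0.15; 4 fell without TGF-β1 library S15). ACSL4, which activates polyunsaturated fatty acids, rose with TGF-β1 (log2 fold change 1.19, adjusted p = 8.4e-14), and ACSS1, the mitochondrial enzyme that turns acetate into acetyl-CoA, fell (log2 fold change −1.34, adjusted p = 2.4e-09). With acetate, ACSS1 rose (log2 fold change 1.03, adjusted p = 1.2e-07). On the library totals of that comparison's own fit, ACSS1 averaged 8.21 CPM with acetate and 4.01 CPM with TGF-β1. ACSS2, the cytosolic and nuclear enzyme of the same reaction, was named after its values were seen: it fell with TGF-β1 (log2 fold change −0.29, adjusted p = 0.0011) and rose with acetate (log2 fold change 1.36, adjusted p = 6e-11). ACSL6 rose with acetate (log2 fold change 1.59, adjusted p = 0.0012) on 58 reads in all acetate libraries and 20 in all TGF-β1 libraries.

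**Figure D4:**
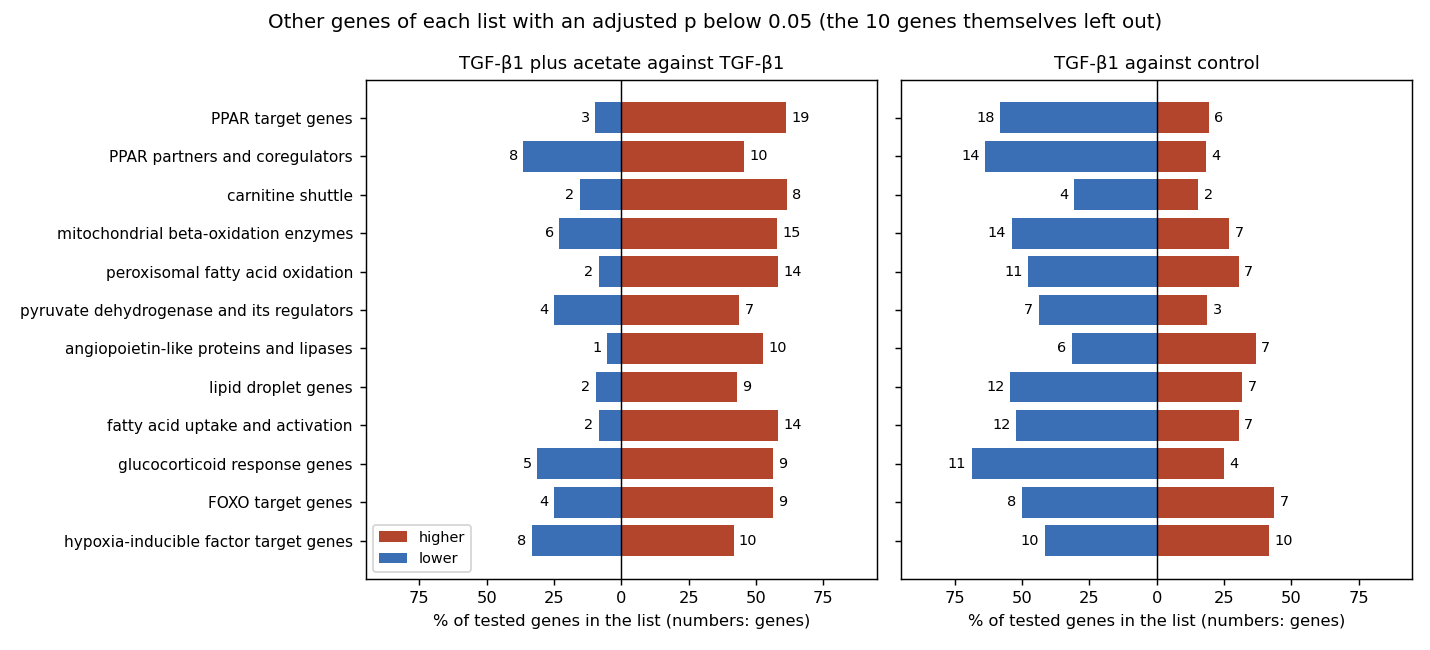
Share of the tested genes of each of the 12 lists, in percent, that were higher (red, right of 0) or lower (blue, left of 0) at an adjusted p below 0.05, for TGF-β1 plus acetate against TGF-β1 (left panel) and TGF-β1 against control (right panel); numbers are genes, and the 10 genes themselves are left out. Among the PPAR targets 19 were higher and 3 lower in the left panel, and 6 higher and 18 lower in the right panel. Over all genes tested, which are not drawn, 33.3% were higher and 30.4% lower in the left comparison. In the right comparison the shares were 34.1% and 32.8%.

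ANGPTL4 and PDK4 also answer to other regulators, whose targets were listed for comparison. Of 24 targets of hypoxia-inducible factors, 10 rose and 10 fell with TGF-β1 (median 0.00), and 10 rose and 8 fell with acetate (median −0.05; 5 fell with library totals). P4HA2, a collagen prolyl hydroxylase, and LOX, a collagen crosslinking enzyme, rose with TGF-β1 (log2 fold change 1.62, adjusted p = 2.6e-14, and 2.27, adjusted p = 4.8e-10), and CA9, a carbonic anhydrase that marks hypoxia, fell (log2 fold change −2.23, adjusted p = 6.9e-12). With acetate, SLC2A3, a glucose transporter, PFKFB4, a regulator of glycolysis, and MXI1, a repressor of the MYC network, rose (log2 fold change 1.85, 1.18 and 1.34, adjusted p = 4.4e-15, 1.2e-11 and 2.3e-11).

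Of 16 glucocorticoid response genes, 4 rose and 11 fell with TGF-β1 (median −1.18), and 9 rose and 5 fell with acetate (median 0.25). ERRFI1, an inhibitor of EGF receptor signalling, SCNN1A, a sodium channel subunit, and BIRC3, an inhibitor of apoptosis, fell with TGF-β1 (log2 fold change −3.19, −3.08 and −2.94, adjusted p = 7.9e-18, 7.5e-14 and 2.7e-14). BIRC3 and the transcription factors TFCP2L1 and KLF9 rose with acetate (log2 fold change 1.17, 1.58 and 1.32, adjusted p = 4.3e-08, 2.7e-10 and 7.9e-09). Of 16 FOXO targets, 7 rose and 8 fell with TGF-β1 (median −0.18), and 9 rose and 4 fell with acetate (median 0.32). FOXO1 itself, a transcription factor known to switch on PDK4 in muscle and liver, rose with TGF-β1 (log2 fold change 2.76, adjusted p = 7.7e-17). Named here after its values were seen, it fell with acetate (log2 fold change −1.07, adjusted p = 7.7e-12). With TGF-β1, FOXO3 fell (log2 fold change −0.44, adjusted p = 8.3e-07) and FOXO4 rose (0.57, adjusted p = 7.5e-05). NR3C1, the glucocorticoid receptor, fell with TGF-β1 (log2 fold change −1.6, adjusted p = 5.3e-16). It did not pass the test with acetate (log2 fold change 0.02, adjusted p = 0.6). The part of these regulators in the PDK4 level was not tested. IGFBP1, an insulin-like growth factor binding protein, fell with TGF-β1 (log2 fold change −2.29, adjusted p = 1.3e-11), and SESN3, a stress-induced regulator of growth signalling, rose with acetate (log2 fold change 1.30, adjusted p = 1.2e-09).

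Against control, the acetate libraries differed in both directions in most lists. So did all 22742 genes tested, of which 36.1% rose and 34.4% fell, and nothing is read from the counts alone. PPAR targets counted 12 rises and 12 falls among 32 tested, partners and coregulators 5 and 15 of 22, carnitine shuttle genes 6 and 4 of 13, and mitochondrial β-oxidation genes 7 and 12 of 26. Peroxisomal genes counted 8 rises and 9 falls of 23, pyruvate dehydrogenase genes 5 and 9 of 16, angiopoietin-like proteins and lipases 10 and 3 of 19, and lipid droplet genes 8 and 11 of 22. Uptake and activation genes counted 13 rises and 7 falls of 23, glucocorticoid response genes 5 and 11 of 16, FOXO targets 10 and 5 of 16, and hypoxia-inducible factor targets 11 and 10 of 24. Of the 10 genes, ANGPTL4, PPARA, PPARD, ACADVL, CPT1A and HADHA lay above control with acetate, and PDK4, PPARGC1A, PLIN2 and CPT2 lay below it.

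Genes with the most similar profile were sought by Pearson's r of log2(CPM + 0.1) over the 12 libraries among 10399 genes at or above the median level. The libraries form 3 groups, so r mainly follows the group means and is a description. Most like ANGPTL4 were ROBO1 (r = 0.9961), NEK7 (0.9948), RHOU (0.9945), KCTD11 (0.9933) and DGKD (0.9924). The size of a change does not enter r. RHOU averaged 46.7 CPM with acetate, 273 CPM with TGF-β1 and 15 CPM in control, and the others differed less between groups. In the same order, ROBO1 averaged 107, 165 and 78.0 CPM and NEK7 95.7, 154 and 71.2 CPM. KCTD11 averaged 19.4, 34.2 and 12.2 CPM, and DGKD 149, 189 and 119 CPM. Most like CPT1A were PCDHA2 (0.9970), RAB11FIP1 (0.9962), ARID5B (0.9960), SH3RF2 (0.9959) and SEMA3A (0.9958), where PCDHA2 shares exons with other genes of its cluster and is uncertain. Most like PDK4 were CNTN1 (0.9993), PDGFRL (0.9993), DUSP4 (0.9991), PLA2G4A (0.9987) and AHR (0.9980), with CNTN1 at 556 CPM with acetate, 215 CPM with TGF-β1 and 816 CPM in control. By Spearman's rho only 1 of these 5 stayed among the first 5 for ANGPTL4, 2 for CPT1A and 0 for PDK4.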

How the data were processed

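Sequencing reads were processed by the authors. Per the submitters' processing notes, bcl2fastq, HISAT2 (build hg38) and limma were used. Tool versions, the program that counted reads, whether it used strand, and the gene annotation were not given in the sources used here. The deposited tables hold raw counts per gene, and the authors' own comparisons as log2 fold changes. A further 32 columns of values per library were not used.

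The count columns carry codes that match no sample label. The set in both tables, with identical counts in the 23771 genes they share, was placed as TGF-β1 (S15 to S18). The set found with it in the table named for control was placed as control (S1 to S4), and that in the table named for acetate as TGF-β1 plus acetate (S22 to S25). Every comparison rests on this placement. Pairs of libraries within a group differed by a chi-square of 3.95 to 17.3 per degree of freedom, above counting noise, so no library was counted as a second deposit of another; this does not show whether libraries came from separate cultures or RNA.

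Differences were fitted with edgeR 4.0.16 in R 4.3.3: filterByExpr (minimum count 10, minimum total 15), TMM, glmQLFit and glmQLFTest, two-sided, Benjamini-Hochberg adjustment over all genes tested, threshold 0.05. The first 2 comparisons used the table holding their groups, and acetate against control used a joint fit of all 12 libraries. Levels in CPM come from the joint totals, except those of ACSS1, and the floor of 3 counts covers counting error only. The TMM factors were 1.03 to 1.06 in acetate, 0.930 to 0.973 in TGF-β1 and 1.00 to 1.03 in control libraries. Alternatives were library totals, DESeq2 1.42.0 and its size factors, limma 3.58.1 with voom, no filter, the joint fit, and leaving out each library. The fitting code was tested on simulated counts with known changes. Exon lengths come from GENCODE release 29, and promoters from RefSeq. Tables were read in Python 3.11.15.

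The members and lists were chosen with earlier results of these data known. Named genes are the members, the 3 called genes of each list with the largest change and no overlap between groups in each of the first 2 comparisons, and the 5 genes most like ANGPTL4, CPT1A and PDK4. Paralogues of members, RXRA, RXRB, HADHB, ACOT2 and the other genes outside this rule were named after their values were seen. A few of the genes picked by this rule are not reported here; they still enter the list and whole-table counts.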

Additional observations from a re-analysis of the deposited data

Results flagged for a closer look

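Among 60 groups of 4 values tested (levels of the 10 genes, and ratios and family shares within libraries), 2 held a library that stood apart from the other 3 by Dixon's criterion, and chance flags about 5% of groups. HADHA was 159 CPM in control library S2, while the other control libraries had 169 to 171 CPM. The CPT1A share of the summed CPT1A, CPT1B and CPT1C level per kilobase was 49.9% in control library S3, while the others had 54.8% to 55.2%.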

How the results depend on the processing

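No paired analysis was possible because the count columns carry no replicate number. No member whose groups did not overlap changed direction under any setting that was run; ACADVL, whose TGF-β1 and control libraries overlapped, had log2 fold changes of −0.12 to 0.01 between them. With library totals in place of TMM, the log2 fold change of CPT1A was −1.53 for TGF-β1 against control, 1.89 for acetate against TGF-β1 and 0.36 for acetate against control; this scaling shifts all genes, as given above. Over all settings the log2 fold change of ANGPTL4 ran from 4.18 to 4.40 for TGF-β1 against control, from −2.57 to −2.34 for acetate against TGF-β1 and from 1.70 to 1.93 for acetate against control. That of PDK4 ran from −5.90 to −5.72, from 4.02 to 4.25 and from −1.78 to −1.60. DESeq2 called 7084 genes higher and 7156 lower for TGF-β1 against control, and 6822 higher and 6936 lower for acetate against TGF-β1. With the longest transcript as gene length, an alternative chosen after seeing the data, ANGPTL4 and PLIN2 changed places with acetate, PDK4 and PPARGC1A with TGF-β1, and PPARD and PPARGC1A in control. Low counts limit the values of PDK4 and PPARGC1A with TGF-β1.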
